A study of Mus musculus with 12 samples.

Results

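The 89 genes described here encode the Golgi enzymes that trim, branch, extend, fucosylate and sialylate the glycans of glycoproteins and glycolipids, and they were followed in CD4+ T cells of healthy and lupus-prone mice. They were chosen by name from the 35275 genes of the deposited table: every protein-coding gene whose symbol begins with St3gal, St6gal, St8sia, Mgat, B3gnt, B3galt, B4galt, Galnt, Gcnt, Fut, Man1a, Man1c or Man2a, together with C1galt1 and C1galt1c1, with 1 B4galt gene left out by the rule. Libraries came from purified CD4+ T cells of 12 mice, 3 in each of 4 groups: untreated C57BL/6 mice (B6), B6 mice given the anti-CD45RB antibody MB23G2, untreated B6.NZMSle1/Sle2/Sle3 mice (SLE123) and SLE123 mice given the same antibody. SLE123 is a congenic strain: B6 mice into which 3 lupus regions of the NZM2410 strain were bred, Sle1 on chromosome 1, Sle2 on chromosome 4 and Sle3 on chromosome 7. Treatment was a course of 5 intraperitoneal injections of 100 μg from day 0 to day 7, and the mice were females of 9 to 12 weeks. CD4+ cells were enriched by negative magnetic selection, and the study's methods also state a further sort by CD25, a surface marker of regulatory T cells, which no library title names. All libraries therefore hold a mixture of CD4+ cells and whatever other cells passed the column, and fewer cells of a type and less RNA per cell cannot be told apart.

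An N-glycan reaches the Golgi as a mannose-rich tree. Mannosidases cut it back, the Mgat enzymes then start up to several N-acetylglucosamine branches on what is left, and each branch is extended with galactose, lengthened into poly-N-acetyllactosamine, and capped with sialic acid or fucose. O-glycans begin when a Galnt enzyme places N-acetylgalactosamine on serine or threonine, after which C1galt1 adds galactose (core 1), Gcnt1 may add a branch (core 2), and St3gal and St6galnac enzymes add sialic acid. On T cells these structures decide which lectins bind, whether selectin ligands form, and which antibodies recognise the heavily O-glycosylated B segment of CD45 and the sialoglycoprotein CD43. The study asked whether CD4+ T cells of SLE123 mice carry altered glycans and whether their genes respond to anti-CD45RB as those of B6 mice do. It read glycans with lectins and antibodies, and the transcripts behind them are what is given here.

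Levels are FPKM, the fragments of a gene divided by the length of its transcript and by the size of the library, so genes can be ranked by them within a library. The libraries held 13562933 to 23641603 fragments as recovered from the FPKM steps, and for a gene of 2000 bases a count of 3 fragments was worth 0.0634 to 0.111 FPKM, which limits counting error only. Of the 89 genes, 53 averaged 0.5 FPKM or more across all mice and entered the test, in which 13115 genes took part. A gene is called when limma's moderated test on log2(FPKM + 1) gave a Benjamini-Hochberg adjusted p-value under 0.05 over those 13115 genes. Differences are on the log2(FPKM + 1) scale, which understates the change of genes with low FPKM. The p-values measure the spread between 3 libraries per group.

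The libraries differed in the transcripts of other cell types, in step with the groups. The summed FPKM of 9 T cell genes, among them Cd3e, Cd4 and Trac, was 3366 to 3492 in untreated and 3042 to 3126 in treated B6 mice. In SLE123 mice it was 2596 to 3481 untreated and 3191 to 3232 treated. The summed FPKM of 6 plasma cell genes was 34.7 to 54.9 in untreated B6 mice, 65.6 to 164 in treated B6 mice, 1843 to 4805 in untreated SLE123 mice and 968 to 1775 in treated SLE123 mice. For 9 B cell genes the ranges in the same order were 6.5 to 7.94, 27.2 to 35.8, 64.6 to 240 and 38.3 to 58.2 FPKM. Immunoglobulin genes took 0.327% to 0.516% of all FPKM in untreated B6 mice and 20.2% to 39.8% in untreated SLE123 mice, with 0.597% to 1.46% and 11.3% to 21.9% in the treated mice of the same strains. Naive T cell genes ran the other way, at 2117 to 2285 FPKM in all 6 B6 mice against 792 to 1541 in the 6 SLE123 mice, while 7 effector and memory genes summed to 161 to 179 FPKM in untreated B6 mice, 288 to 348 in treated B6 mice and 472 to 583 in SLE123 mice. The 8 myeloid genes summed to 6.27 to 11.3 FPKM in untreated B6 mice and 61.4 to 132 in treated B6 mice, against 24.8 to 103 in SLE123 mice. By limma, 6 of 7 tested B cell genes, 6 of 6 myeloid genes, 2 of 7 effector and memory genes and 1 of 6 plasma cell genes were higher in treated than in untreated B6 mice. Of the 9 T cell genes, 4 were lower and 0 higher there, where 6.12% of all genes were called lower and 8.74% higher. Between the untreated strains all tested plasma cell (6), B cell (7) and effector and memory genes (7) were higher and 6 of 7 naive T cell genes lower in SLE123. The 5 liver genes were at 33.6 to 40.4 FPKM in every B6 mouse and at 38 in treated SLE123 replicate 1, and at most at 0.207 in the other 5 SLE123 mice. Between the untreated groups this split coincides with strain, so whatever lies behind it cannot be told apart from strain in that comparison. None of these lists had a gene at 0 in all 12 mice, and the part that other cells or a shift from naive to effector T cells have in any result given here was not tested.

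**Figure D1:**
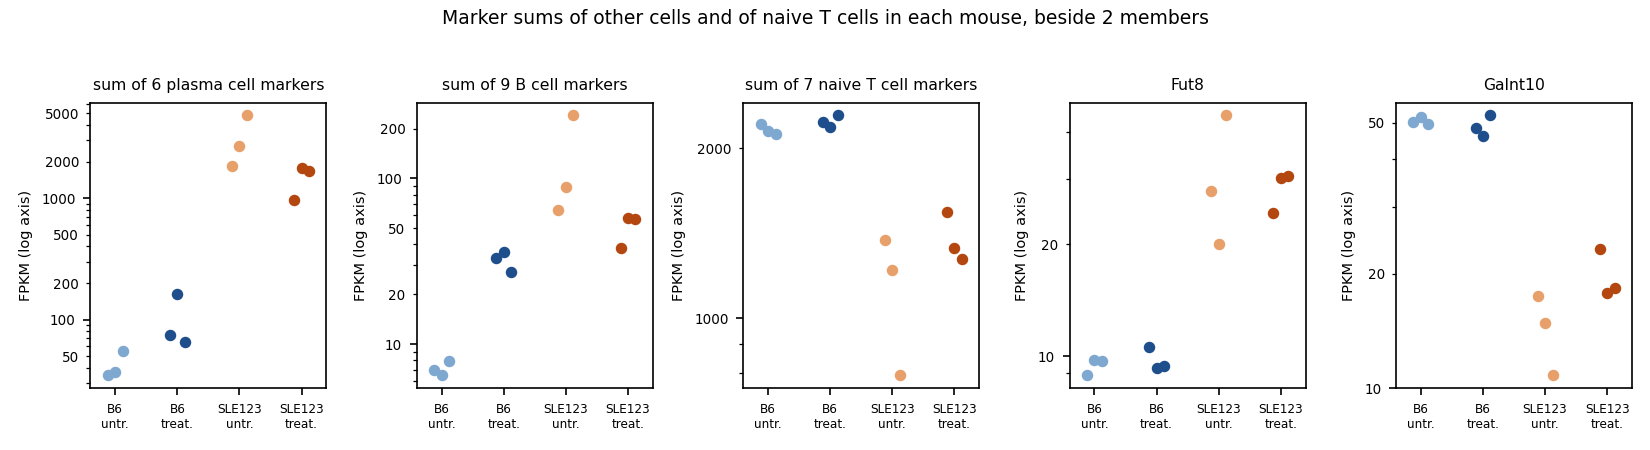
Summed FPKM of plasma cell, B cell and naive T cell genes and FPKM of Fut8 and Galnt10 in each of the 12 mice, on log axes, with 1 point per mouse. The plasma cell sum lies between 34.7 and 164 in the B6 mice and between 968 and 4805 in the SLE123 mice, and untreated SLE123 replicate 3 has the highest plasma cell, B cell and Fut8 values and the lowest naive T cell and Galnt10 values.

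Most of the machinery for complex N-glycans and for core 1 O-glycans was expressed, and a few genes dominated each step. Among the 53 tested genes the highest group means in untreated B6 mice were those of Galnt6 (101 ± 2.51 FPKM, SD, n = 3), St6gal1 (56.8 ± 1.1), B4galt1 (54.3 ± 1.79) and Galnt10 (50.5 ± 1.07). St6gal1 adds α2,6-linked sialic acid to N-glycan branches and B4galt1 adds galactose to them. Several steps rested largely on 1 gene over the 12 mice: Fut8 had 65.1% of the summed FPKM of fucosyltransferases, C1galt1 64% of the core 1 and core 2 genes, and St3gal1 53.6% of the α2,3 sialyltransferases. Of the 36 genes below 0.5 FPKM, 6 were at 0 in all mice, 18 stayed under 0.1 FPKM in every mouse, and 12 reached at least 0.1 FPKM in a mouse (Mgat4e, B3galt1, B3galt2, B3gnt7, B4galt6, Fut10, Galnt2, Galnt3, Galnt14, Gcnt7, St6galnac1 and St6galnac2). Mgat3, which adds the bisecting N-acetylglucosamine, was among the near-silent genes, with 0 to 0.0519 FPKM, or at most 5 fragments in a library. Galnt2, one of the widely expressed Galnt genes in other tissues, had 0.026 to 0.143 FPKM, and 90% of its exon bases are shared with a readthrough gene, Gm20388, in the annotation.

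**Figure D2:**
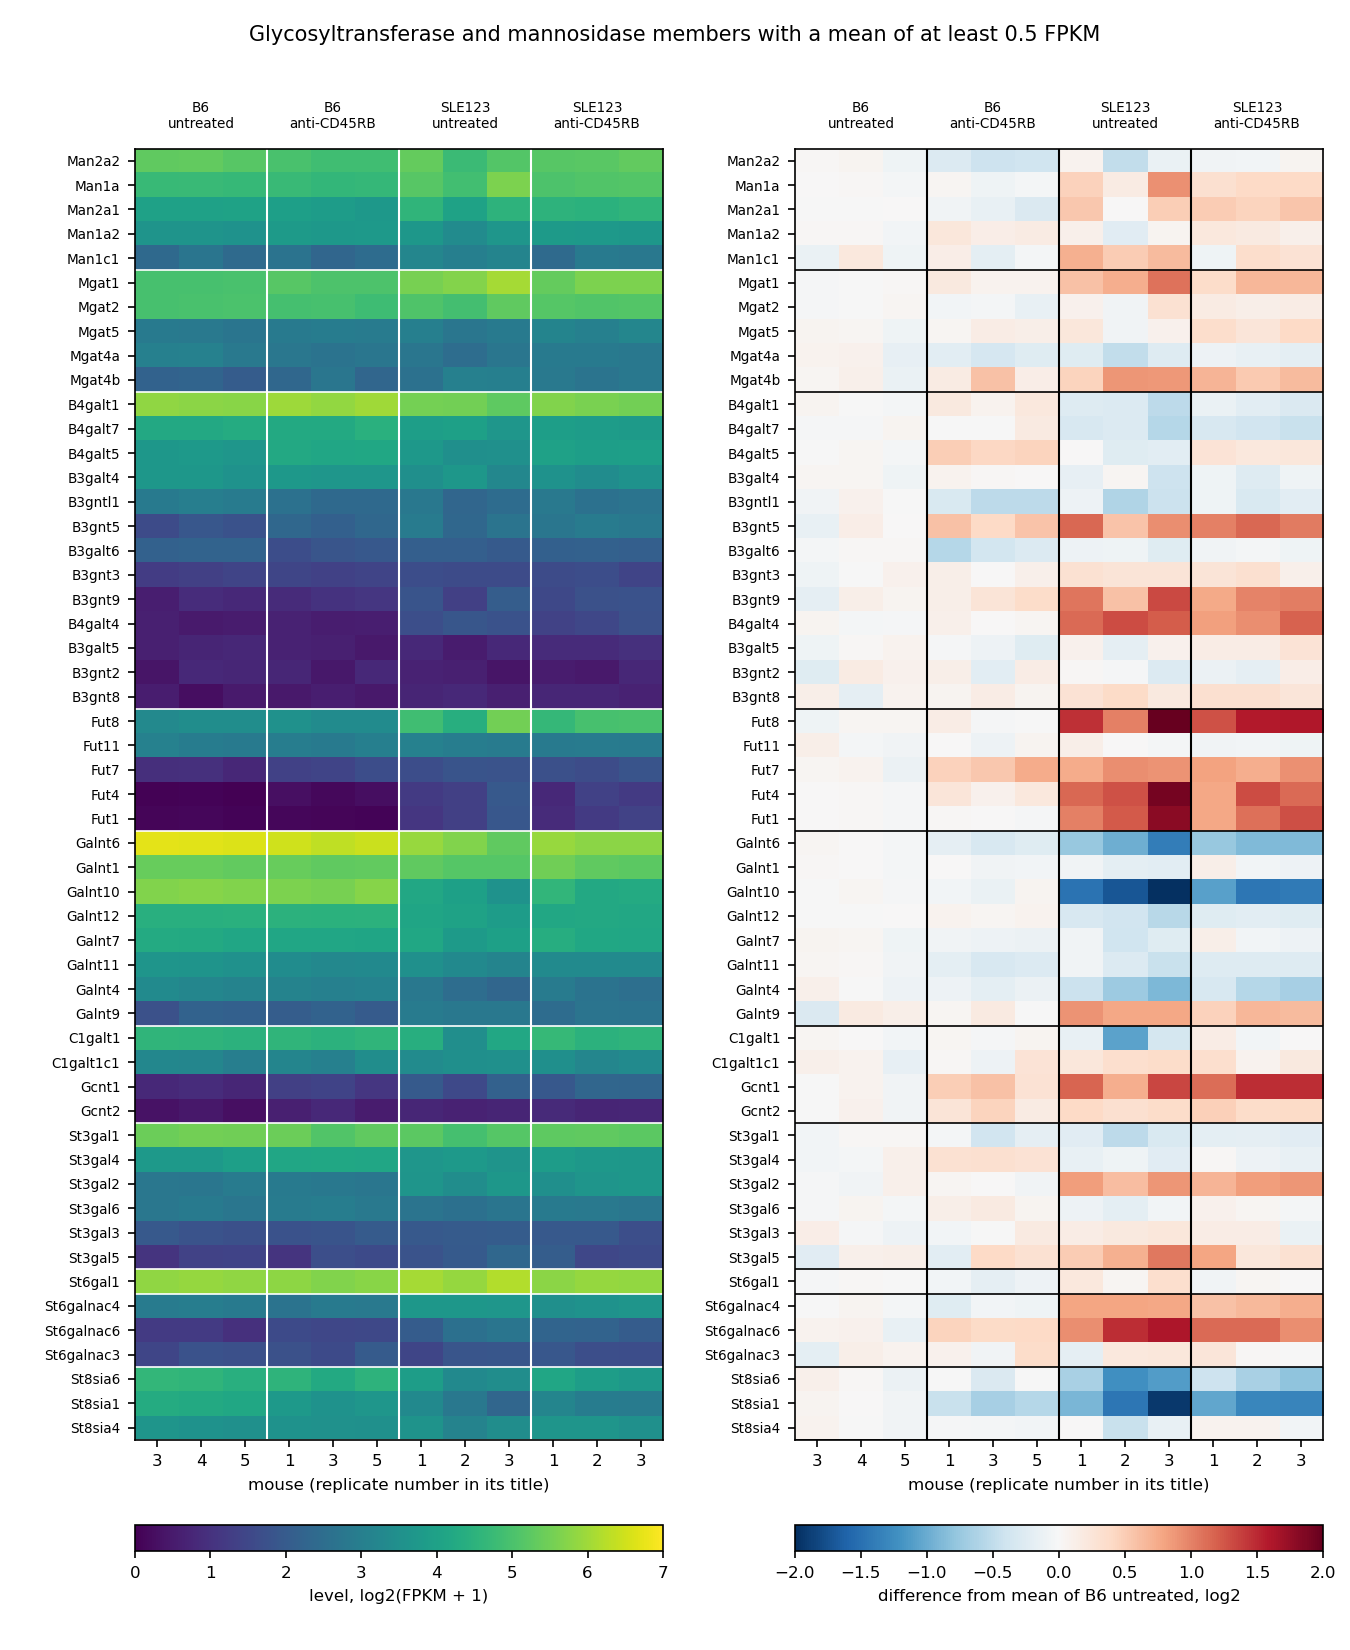
Level as log2(FPKM + 1) (left) and its difference from the mean of the untreated B6 mice (right, colour scale ending at -2 and 2) for the 53 tested genes in each of the 12 mice, ordered by step from N-glycan trimming at the top to α2,8 sialylation at the bottom. On this scale treated B6 mice differ little from untreated B6 mice, whereas both SLE123 groups stand apart for Fut8, Fut4, Fut1, St6galnac6, Gcnt1 and B4galt4 (higher) and Galnt10, Galnt6 and St8sia1 (lower).

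In untreated mice every step but 1 held at least 1 gene called between the strains, where 42.9% of all genes tested were called. The exception, α2,6 sialylation of galactose, had 1 tested gene. Libraries of SLE123 mice had higher levels of the fucosyltransferases Fut8 and Fut7, of the core 2 branching enzyme Gcnt1, and of Mgat1, St3gal2 and St6galnac4. Levels of Galnt10, Galnt6, St8sia1 and St8sia6 were lower. Which cells in the libraries carry these differences was not tested. Limma called 28 of the 53 tested genes, 52.8% against 42.9% of all genes tested. Of these, 19 were higher in SLE123 (35.8%, against 22.8% of all genes) and 9 lower (17%, against 20.1% of all genes), and the median difference of the 53 genes was 0.08 against -0.03 for all 13115. The split depends on scaling: with FPKM rescaled to TPM 15 were higher and 22 lower, and with quantile normalization 15 and 16, settings in which the median of all genes itself moved to -0.38 and -0.16. Of the called genes described here, 40.5% and 48.4% were then higher, against 24.3% and 34.1% of all called genes. With median centring 18 were higher and 9 lower (66.7%, against 54% of all called genes). With removal of immunoglobulin genes 18 were higher and 8 lower (69.2%, against 65.7%). Of the tested genes, 5 (Fut1, Fut4, B4galt4, Gcnt2 and B3gnt8) had a mean under 0.5 FPKM in untreated B6 mice and were tested through their level in SLE123 mice. The filter favours a higher call for such genes, and all but B3gnt8 are among the 19. The call held for 22 of the 28 whichever single mouse was omitted, and was lost for B4galt1, B4galt7, C1galt1c1, Gcnt2, Man1a or St3gal1 in at least 1 of these fits. Of the 13 called Galnt, fucosyltransferase, α2,8 and GalNAc sialyltransferase genes, each kept its direction and call under TPM, quantile normalization and removal of immunoglobulin genes, whereas Man1a, Man1c1, C1galt1c1, St3gal1 and St3gal5 lost the call under at least 1 of them.

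**Figure D3:**
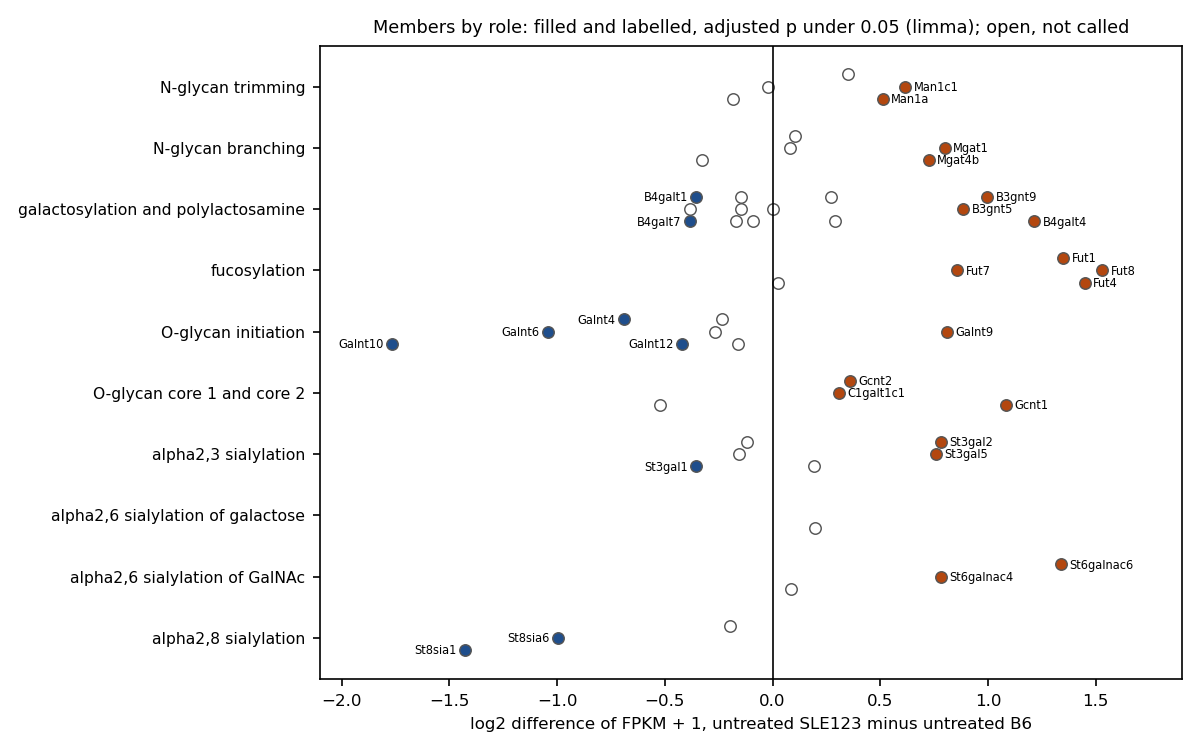
Difference in log2(FPKM + 1) between untreated SLE123 and untreated B6 mice (horizontal axis) for the 53 tested genes, arranged by step; filled and labelled points were called by limma at an adjusted p-value under 0.05 and open points were not. Fut8 at 1.53 is the point farthest to the right, and Galnt10 at -1.77 is the point farthest to the left.

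Of the 8 tested Galnt genes, 4 were lower in untreated SLE123 mice (Galnt10, Galnt6, Galnt12 and Galnt4), 1 was higher (Galnt9) and 3 were not called, and their summed level was 151 ± 20.2 FPKM against 253 ± 5.75 in untreated B6 mice (SD, n = 3). Over all genes tested, 20.1% were called lower and 22.8% higher in this comparison. Galnt10, which acts mainly on peptides that already carry N-acetylgalactosamine, was at 50.2, 51.6 and 49.6 FPKM in untreated B6 mice and at 17.5, 14.8 and 10.8 FPKM in untreated SLE123 mice. The groups were far apart, with a log2 difference of -1.77 (SE 0.154, limma adjusted p = 0.000169). Galnt6, the most abundant of the family in these cells, was at 103, 101 and 98.3 FPKM in untreated B6 mice against 59.2, 50.5 and 38.2 FPKM in untreated SLE123 mice. Again no mouse of one strain reached the other, and the difference was -1.04 (SE 0.149, adjusted p = 0.00165). An antisense gene, Galnt6os, shares 11.4% of its exon bases, and without a statement on strand its reads cannot be told apart. Smaller differences were those of Galnt12 (13.7 to 16.3 FPKM against 20.5 to 20.8, log2 difference -0.42) and Galnt4 (4 to 5.98 against 7.77 to 9.1, -0.69). Galnt9 went the opposite way, from 2.33, 3.6 and 3.39 FPKM in untreated B6 mice to 6.55, 5.92 and 5.94 FPKM (0.81, adjusted p = 0.00365). Galnt1, a broadly acting initiator, had 38.7 to 40.8 FPKM in B6 and 34.3 to 38.1 FPKM in SLE123 mice and was not called. Among the untested genes, Galnt14 had 0 to 3 fragments in each of the 6 B6 mice and 46 to 79 in the untreated SLE123 mice (0.823 to 1.19 FPKM), and Galnt3 was at 0.0479 to 0.0712 FPKM in untreated B6 mice and at 0.171, 0.11 and 0.915 FPKM in untreated SLE123 mice, the last in the mouse with the most B cell and plasma cell transcripts.

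At the next step 3 of 4 tested genes were called higher in untreated SLE123 mice (C1galt1c1, Gcnt1 and Gcnt2) and C1galt1 was not called. The share of all genes called higher was 22.8%. C1galt1, the core 1 galactosyltransferase whose product the lectin Jacalin reads, was at 23, 22.4 and 21.4 FPKM in untreated B6 mice and at 20, 10.1 and 17.3 FPKM in untreated SLE123 mice. All SLE123 values were below all B6 values, yet the spread in SLE123 was wide, and the difference of -0.52 (SE 0.219) was not called (limma adjusted p = 0.0906), although with TPM it was called lower at -0.91. C1galt1c1, the chaperone that C1galt1 needs, was at 8.51, 8.36 and 6.95 FPKM against 9.4, 10.3 and 10.5 FPKM and was called higher at 0.31 (adjusted p = 0.0432), a sign that turned to -0.04 with FPKM rescaled to TPM. Gcnt1, the core 2 enzyme of leukocytes, on which the activated glycoform of CD43 depends, rose from 0.754, 0.852 and 0.688 FPKM to 2.97, 1.93 and 3.47 FPKM. The lowest SLE123 mouse was above the highest B6 mouse, and the difference was 1.08 (SE 0.168, adjusted p = 0.0023). Its relative Gcnt2, which makes branched polylactosamine, was at 0.214 to 0.355 FPKM in untreated B6 mice and at 0.601 to 0.679 FPKM in untreated SLE123 mice (0.36, adjusted p = 0.0343), a call that was lost with TPM and with quantile normalization. Gcnt2 entered the test through its level in SLE123 mice, so the filter favoured a call in that direction. Gcnt3, Gcnt4 and Gcnt7 did not exceed 0.275 FPKM in any mouse.

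**Figure D4:**
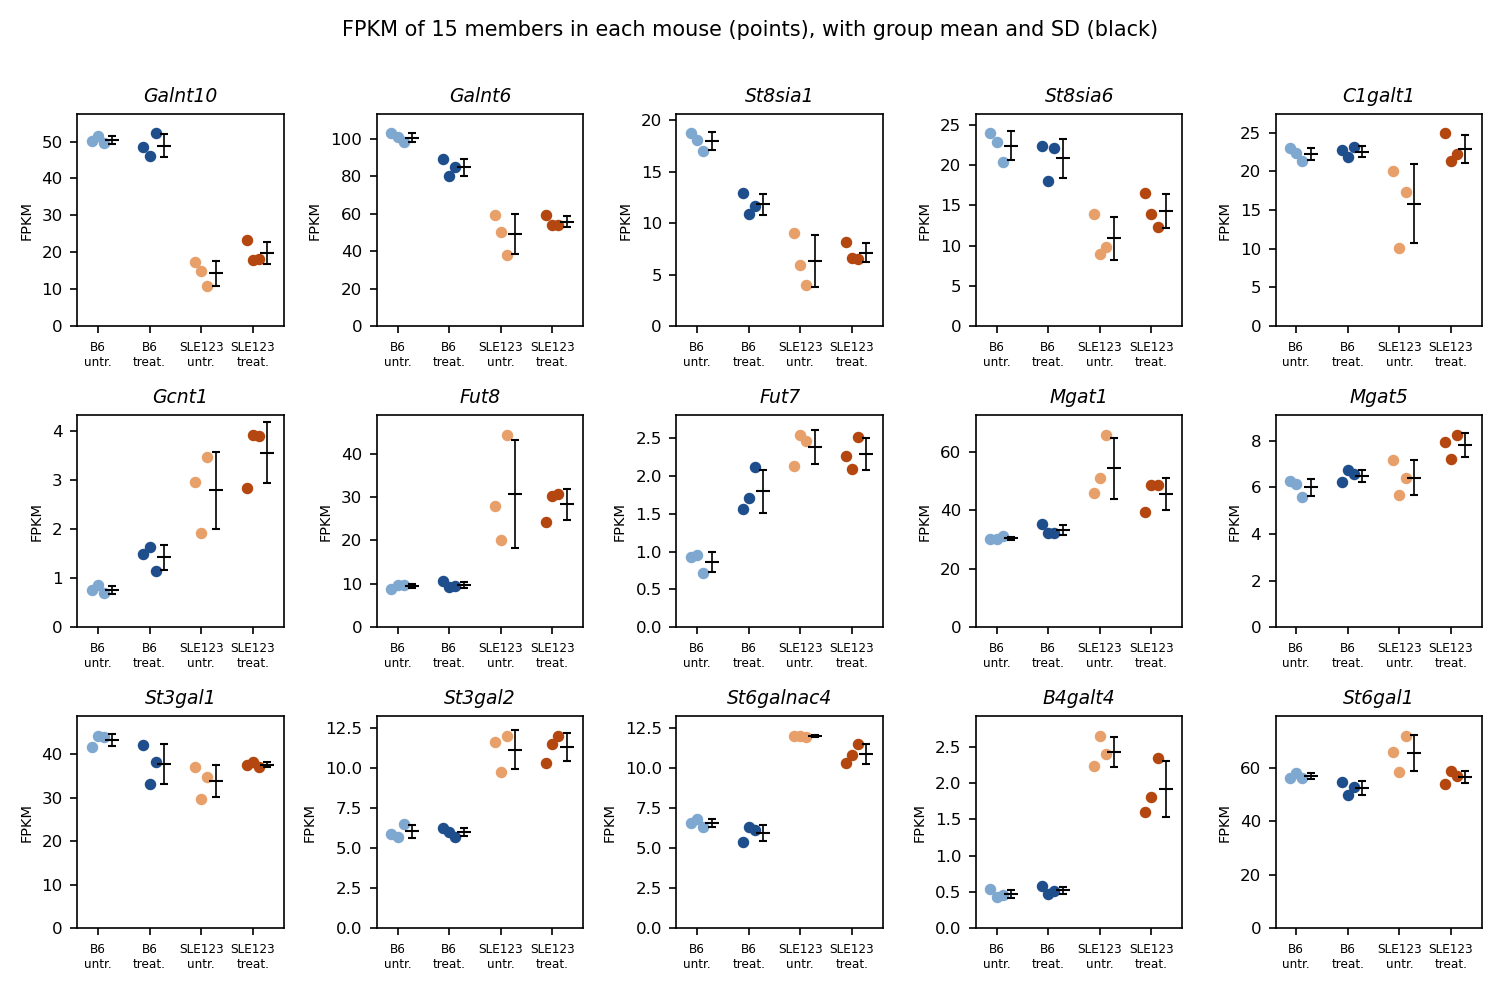
FPKM of 15 genes in each mouse (1 point per mouse, 3 per group, linear axes from 0), with the group mean and SD in black beside them. Galnt10 lies between 46.1 and 52.2 FPKM in the 6 B6 mice and between 10.8 and 23.2 FPKM in the 6 SLE123 mice, and Fut7 lies between 0.718 and 0.959 FPKM in untreated B6 mice and between 1.56 and 2.55 FPKM in the 9 other mice.

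Sialyltransferases differed between the strains in both directions. For α2,3 linkages, the kind read by the lectin MALII, 2 of 6 genes were higher in untreated SLE123 mice, 1 was lower and 3 were not called, and the summed level was 68.4 ± 4.67 FPKM against 72.6 ± 2.2. With 6 genes these counts are close to the 22.8% and 20.1% of all genes. St3gal1, which caps core 1 O-glycans and is the most abundant of the 6, was at 41.8, 44.3 and 44 FPKM in untreated B6 mice and at 37, 29.8 and 34.9 FPKM in untreated SLE123 mice. The groups did not overlap, and the difference was small at -0.35 (SE 0.0945, adjusted p = 0.0209). St3gal2, which acts on the same Galβ1,3GalNAc structure in O-glycans and gangliosides, moved in the other direction, from 5.88, 5.7 and 6.52 FPKM to 11.6, 9.73 and 12 FPKM (0.78, SE 0.106, adjusted p = 0.00126). St3gal5, the GM3 synthase, was higher at 2.46 to 4.01 FPKM against 1.07 to 1.63 FPKM (0.76). St3gal4 and St3gal6, which cap N-acetyllactosamine and so help to make selectin ligands, were at 11.3 to 12.5 and 5.05 to 5.61 FPKM in untreated SLE123 mice and at 12.8 to 14.4 and 5.68 to 6.2 FPKM in untreated B6 mice, without a call. The reads of St3gal6 share 26% of its exon bases with Dcbld2 on the opposite strand.

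Sialic acid on N-acetylgalactosamine and in α2,8 chains differed more. St6galnac4, which adds sialic acid to already sialylated core 1, was at 6.53, 6.8 and 6.32 FPKM in untreated B6 mice and at 12, 12 and 11.9 FPKM in untreated SLE123 mice. The 3 SLE123 mice were nearly identical and well above every B6 mouse, a difference of 0.78 (SE 0.0769, adjusted p = 0.000293). St6galnac6, which acts mainly on gangliosides, went from 1.26, 1.29 and 0.957 FPKM to 3.12, 5.03 and 5.62 FPKM (1.34, SE 0.188, adjusted p = 0.00148). The 2 genes lie end to end on the same strand of chromosome 2 (GRCm38 chr2:32587095-32599698 and chr2:32599709-32620806). St6gal1 was at 56.1 to 58 FPKM in untreated B6 mice and at 65.7, 58.4 and 71.9 FPKM in untreated SLE123 mice, the highest value again in the mouse richest in B cell transcripts, and was not called (0.20, adjusted p = 0.122; -0.18 when rescaled to TPM). St8sia1, the GD3 synthase that makes the ganglioside marker of some T cells, was at 18.7, 18.1 and 17 FPKM in untreated B6 mice against 9.03, 5.96 and 3.97 FPKM in untreated SLE123 mice, a wide gap (-1.43, SE 0.23, adjusted p = 0.00272). St8sia6, which extends sialic acid on O-glycans, was at 23.9, 22.8 and 20.4 FPKM against 13.9, 8.92 and 9.79 FPKM (-0.995, adjusted p = 0.00245). St8sia4, the polysialyltransferase, was at 10.4 to 11.6 against 7.74 to 11 FPKM and was not called.

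Among fucosyltransferases, Fut8 and Fut7 were called higher in untreated SLE123 mice, as were 22.8% of all genes, and Fut11 was not called. Fut1 and Fut4 were also called higher, but they entered the test only through their level in SLE123 mice, so a call in that direction was favoured by the filter, and neither was tested with the limit at 1 FPKM. For all 8 genes of the family the summed level was 44 ± 13.8 FPKM against 17.6 ± 0.375. Fut8, which adds the core fucose of N-glycans, was at 8.88, 9.76 and 9.71 FPKM in untreated B6 mice and at 27.9, 20 and 44.4 FPKM in untreated SLE123 mice. Every SLE123 mouse was far above the highest B6 mouse, with a difference of 1.53 (SE 0.25, limma adjusted p = 0.00286), and the mouse at 44.4 FPKM is the one with the largest plasma cell sum. Fut7, which completes the sialyl Lewis X ligand of selectins on activated T cells, was at 0.926, 0.959 and 0.718 FPKM against 2.13, 2.55 and 2.47 FPKM (0.86, adjusted p = 0.00116). Fut4, which makes Lewis X, had 2, 3 and 1 fragments in the untreated B6 libraries and 79, 102 and 250 in the untreated SLE123 libraries. Fut1, which makes the H structure, had 3, 4 and 2 fragments against 49, 72 and 168. The log2 differences of Fut4 (1.45, adjusted p = 0.00144) and Fut1 (1.35, adjusted p = 0.00213) depend on the pseudocount at such low counts and measure no fold. Fut11 was at 6.39 to 7.41 FPKM in untreated B6 mice and at 6.54 to 7.45 FPKM in untreated SLE123 mice.

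For N-glycans, 2 of 5 trimming genes (Man1a and Man1c1) and 2 of 5 branching genes (Mgat1 and Mgat4b) were called higher in untreated SLE123 mice, and 0 of either were called lower. The shares of all genes were 22.8% higher and 20.1% lower. Mgat1, which starts hybrid and complex N-glycans, was at 30, 30.1 and 31 FPKM in untreated B6 mice and at 45.9, 51.1 and 65.8 FPKM in untreated SLE123 mice (0.80, SE 0.129, adjusted p = 0.00276), without overlap. Mgat4b, which adds the β1,4 branch, was at 3.07 to 3.8 against 5.08 to 7.23 FPKM (0.73, adjusted p = 0.00658), while its relative Mgat4a was at 6.15 to 7.51 against 4.66 to 5.78 FPKM (-0.33, adjusted p = 0.0566; called lower at -0.71 with TPM). Mgat5 makes the β1,6 branch that the lectin PHA-L binds. It was at 6.26, 6.15 and 5.58 FPKM in untreated B6 mice and at 7.17, 5.68 and 6.4 FPKM in untreated SLE123 mice. Those ranges overlap, and the difference of 0.08 was not called (adjusted p = 0.564; -0.27 when rescaled to TPM). Mgat2 was at 30.1 to 31.6 and 29.3 to 38 FPKM. Among the trimming mannosidases, Man1c1 (4.25 to 5.65 against 7.15 to 8.35 FPKM, difference 0.61) and Man1a (24.6 to 25.7 against 35.2, 28.3 and 48.2 FPKM, difference 0.51) were called higher. Man2a1, the mannosidase that acts after Mgat1, was at 15.1 to 15.4 FPKM in untreated B6 mice and at 22.7, 15.3 and 21.9 FPKM in untreated SLE123 mice (0.35, adjusted p = 0.0863).

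Of 13 tested galactosyltransferase and polylactosamine genes 3 were called higher and 2 lower, shares close to or under the 22.8% and 20.1% of all genes. B4galt4, which galactosylates sulfated N-acetylglucosamine, was at 0.538, 0.432 and 0.458 FPKM in untreated B6 mice and at 2.23, 2.65 and 2.4 FPKM in untreated SLE123 mice. This was a clean separation on 17 to 20 fragments in B6 and 85 to 131 in SLE123 libraries, with a difference of 1.21 (SE 0.107, adjusted p = 0.000181). Its mean in untreated B6 mice, 0.476 FPKM, was under the expression limit, so the filter favoured a call in that direction. B3gnt5, the first enzyme of lacto-series glycolipids, was at 2.05, 2.73 and 2.42 against 6.53, 4.04 and 5.48 FPKM (0.89, adjusted p = 0.00491), and B3gnt9 at 0.493 to 0.835 against 1.53 to 3.21 FPKM (0.996, adjusted p = 0.00646). B4galt1 was lower, at 45.3, 44.7 and 37.3 FPKM against 56.2, 54.2 and 52.6 FPKM (-0.35, adjusted p = 0.0204), as was B4galt7, which builds the linker of proteoglycans (11.9 to 14.7 against 17.7 to 18.7 FPKM, -0.39). Below the expression limit, B3galt1 had 1 or 2 fragments in each untreated B6 library and 54 to 105 in the untreated SLE123 libraries. B4galt6, which also makes lactosylceramide, was at 0.0381 to 0.0642 FPKM in untreated B6 mice and at 0.801 to 1.04 FPKM in untreated SLE123 mice.

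The tested genes called in no comparison included abundant ones. Over the 12 mice the trimming mannosidase Man1a2 was at 9.42 to 13.2 FPKM, Galnt7 at 13.2 to 19.4, B3galt4, which works on gangliosides, at 8.52 to 12.3, and St3gal3 at 2.22 to 3.14 FPKM. St6galnac3 was at 1.76 to 3.04 FPKM, B3gnt3 at 1.39 to 2.17 and B3gnt2, a main polylactosamine enzyme in other cells, at 0.304 to 0.76 FPKM, though 58.6% of the exon bases of B3gnt2 are shared with Gm28048 on the same strand.

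Of the 28 genes called between the untreated strains, 24 lie outside the chromosomes that carry the Sle regions, where 42 of the 53 tested genes lie. On chromosome 1, 0 of 3 tested genes were called, on chromosome 4, 3 of 5 (B4galt1, Man1c1 and Galnt12), and on chromosome 7, 1 of 3 (Fut1). Over all genes 42.9% were called, and 3 to 5 genes per chromosome are too few to set against that share. Positions of the congenic intervals were not used, so it was not asked whether these 4 genes lie inside them.

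The next comparison asked which of these genes respond to anti-CD45RB in healthy mice. Treated and untreated B6 mice differed for 12 of the 53 genes, 22.6% against 14.9% of all genes tested. Of these, 6 were higher after treatment (B4galt5, St3gal4, Fut7, B3gnt5, St6galnac6 and Gcnt1), 11.3% against 8.74% of all genes, and 6 were lower (St8sia1, Man2a2, Galnt6, B3gntl1, Galnt11 and B3galt6), 11.3% against 6.12% of all genes. At an unadjusted p-value under 0.05 there were 20 genes, 37.7% against 32.3% of all genes. The changes were small, with absolute log2 differences from 0.25 to 0.58, and the median over the 53 genes was 0.04 against -0.002 for all genes. Summed levels moved little in most steps, from 253 ± 5.75 to 231 ± 8.22 FPKM for Galnt genes, from 51.2 ± 3.24 to 43.3 ± 3.39 for α2,8 sialyltransferases, and from 72.6 ± 2.2 to 71.5 ± 3.71 for α2,3 sialyltransferases (SD, n = 3). B4galt5, St8sia1 and Man2a2 kept their call whichever single mouse was omitted, but St8sia1 and Man2a2 lost it with all 12 mice in one fit. The number of genes called was 6 without treated replicate 5, 5 without untreated replicate 3 and 4 without untreated replicate 4, and 8 or 9 without any 1 of the other mice.

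Among the genes that fell, St8sia1 had the largest difference. It was at 18.7, 18.1 and 17 FPKM in untreated B6 mice and at 12.9, 10.9 and 11.7 FPKM in treated B6 mice, without overlap (-0.56, SE 0.07, limma adjusted p = 0.00493). Man2a2, an N-glycan trimming mannosidase, was at 38.1, 39 and 35.3 FPKM and then at 30.9, 27.7 and 28.1 FPKM (-0.36, adjusted p = 0.0104). Galnt6 fell from its high level of 98.3 to 103 FPKM to 89.3, 80.1 and 85.3 FPKM (-0.25, adjusted p = 0.0161), and Galnt11 from 10.6 to 11.5 FPKM to 8.71 to 9.59 FPKM (-0.26, adjusted p = 0.0297). B3galt6, which acts in the proteoglycan linker, was at 3.52, 3.73 and 3.71 FPKM and at 2.15, 2.59 and 2.84 FPKM after treatment (-0.41, adjusted p = 0.031). B3gntl1 was at 6.19, 7.01 and 6.51 FPKM and at 5.1, 4.27 and 4.26 FPKM (-0.45, adjusted p = 0.0184). Galnt6, Galnt11, Man2a2, B3galt6 and St8sia1 also stand on the study's own list of lowered metabolic genes, which was drawn from these libraries and is no independent evidence of direction. The other members of that list were at -0.26 (Mgat4a, adjusted p = 0.0878), -0.17 (Man2a1, adjusted p = 0.115) and -0.20 (St3gal1, adjusted p = 0.148). St3gal1 was at 41.8, 44.3 and 44 FPKM in untreated and at 42.2, 33.1 and 38.2 FPKM in treated B6 mice, so the groups overlapped. The T cell sum given above was lower in every treated than in every untreated B6 mouse, and its part in the falls was not tested.

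Among the genes that rose, B4galt5, a galactosyltransferase of lactosylceramide synthesis, had the smallest adjusted p-value. It was at 12.1, 12.6 and 11.9 FPKM in untreated and at 17.6, 16.6 and 17 FPKM in treated B6 mice (0.45, SE 0.0449, adjusted p = 0.00228). Fut7 rose from 0.926, 0.959 and 0.718 FPKM to 1.56, 1.71 and 2.12 FPKM, the largest difference of the 12 at 0.58 (SE 0.105, adjusted p = 0.0164). Gcnt1 rose from 0.688 to 0.852 FPKM to 1.49, 1.64 and 1.15 FPKM (0.46, adjusted p = 0.0294), and B3gnt5 from 2.05 to 2.73 FPKM to 3.46 to 4.09 FPKM (0.52, adjusted p = 0.0213). St3gal4 was at 12.8, 12.9 and 14.4 FPKM and then at 16.7, 17 and 16.6 FPKM (0.31, adjusted p = 0.0148), and 14.1% of its exon bases overlap an antisense gene. St6galnac6 was at 0.957 to 1.29 FPKM and then at 1.83 to 1.96 FPKM (0.41, adjusted p = 0.0276). In the same treated mice the effector and memory, B cell and myeloid sums given above were higher in all 3 animals than in any untreated B6 mouse, and their part in these rises was not tested. C1galt1 (22.8, 21.8 and 23.1 FPKM after treatment, difference 0.02, adjusted p = 0.824), C1galt1c1 (0.06, adjusted p = 0.734), Mgat5 (6.21, 6.72 and 6.57 FPKM, 0.10, adjusted p = 0.341) and St6gal1 (49.8 to 54.7 FPKM, -0.11, adjusted p = 0.109) were not called.

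In SLE123 mice no gene of the 53 was called after the same treatment, where limma called 0.0381% of all genes. There were 5 genes, 9.43% against 10.4% of all genes, with an unadjusted p-value under 0.05, and none of the 53 had an adjusted p-value under 0.414. These were B4galt5, Man1c1, Galnt10, C1galt1 and Mgat5. B4galt5 was at 12.3, 10.2 and 10.4 FPKM in untreated and at 15, 14.3 and 14.5 FPKM in treated SLE123 mice, without overlap (0.39, SE 0.0919, adjusted p = 0.414), close to its difference in B6 mice. It was the 1 gene called when all 12 mice shared a fit. Galnt10 was at 17.5, 14.8 and 10.8 FPKM and at 23.2, 17.8 and 18.3 FPKM after treatment (0.45, adjusted p = 0.469), every treated mouse above every untreated mouse but none near the 46.1 FPKM of the lowest B6 mouse. C1galt1 was at 20, 10.1 and 17.3 FPKM and then at 24.9, 21.4 and 22.3 FPKM (0.56, SE 0.225, adjusted p = 0.469), values within or above the B6 range of 21.4 to 23.1 FPKM. Mgat5 was at 5.68 to 7.17 FPKM and then at 7.96, 7.23 and 8.26 FPKM (0.25, adjusted p = 0.469), and Man1c1 at 7.15 to 8.35 FPKM and then at 4.37, 6.35 and 5.97 FPKM (-0.43, adjusted p = 0.454). St3gal1 (0.15, adjusted p = 0.522), Gcnt1 (0.28, adjusted p = 0.549), St6gal1 (-0.20, adjusted p = 0.469) and C1galt1c1 (-0.11, adjusted p = 0.651) were likewise not called. The plasma cell and B cell sums were lower in every treated than in every untreated SLE123 mouse, and their part in these differences was not tested.

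The spread between mice was not the same in the strains. The median SE of a difference over the 53 genes was 0.0709 in B6 and 0.121 in SLE123, while the median absolute difference was 0.117 in B6 and 0.16 in SLE123. The absence of calls in SLE123 is therefore not a measurement of no change.

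**Figure D5:**
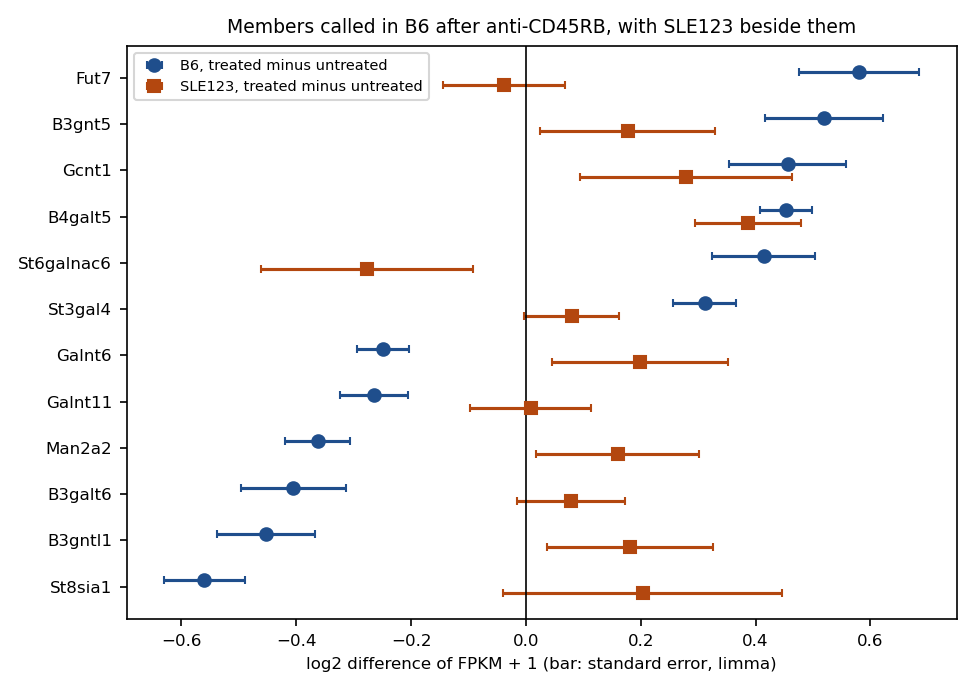
Difference in log2(FPKM + 1) between treated and untreated mice in B6 (circles) and SLE123 (squares) for the 12 genes called in B6, with bars for the standard error of limma. B4galt5, Gcnt1, B3gnt5 and St3gal4 lie on the same side of 0 in both strains and the other 8 do not, and Fut7 has the value 0.58 in B6 and -0.04 in SLE123.

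Whether the strains responded differently was tested as a strain-by-treatment interaction on all 12 mice, the difference in SLE123 minus that in B6. Fut7 was the 1 gene of the 53 called, lower at -0.62 (SE 0.146, limma adjusted p = 0.0435), 1.89% against 3.64% of all genes. Its treated SLE123 values of 2.26, 2.1 and 2.52 FPKM overlapped the untreated ones, whereas in B6 they did not. That call was lost when any 1 mouse other than untreated SLE123 replicate 1 was left out. Without that replicate 14 genes were called, among them C1galt1, St8sia1, Galnt6, Galnt10 and St3gal1. The share of all genes called in that fit is not given here. With all mice 14 genes, 26.4% against 25.1% of all genes, had an unadjusted p-value under 0.05. After Fut7 the smallest p-values, none of them called, were those of B3galt6 (0.48, adjusted p = 0.0531), B3gntl1 (0.63, adjusted p = 0.0664), Mgat4a (0.44, adjusted p = 0.0848), Man2a2 (0.52, adjusted p = 0.0954) and St6galnac6 (-0.69, adjusted p = 0.0962). Of the 12 genes called in B6, 4 had the same sign in SLE123 and 8 the other sign, with a median absolute difference of 0.433 in B6 and 0.179 in SLE123; they were chosen for their change in B6, which favours the larger value there.

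Between the treated groups the strain differences were largely those of the untreated groups. Limma called 29 of the 53 genes, 54.7% against 52.1% of all genes, with 19 higher in SLE123 (35.8%, against 29.6% of all genes) and 10 lower (18.9%, against 22.5% of all genes). Rescaled to TPM the split was 14 and 13, and with quantile normalization 16 and 13. The shares higher were 51.9% and 55.2%, against 35.3% and 35.4% of all called genes. With median centring the split was 19 and 11 (63.3% higher, against 51.2% of all called genes). With removal of immunoglobulin genes it was 26 and 9 (74.3%, against 70.5%). In both strain comparisons 13 genes were called higher and 8 lower, and none was called in opposite directions. Fut8 (24.2, 30.2 and 30.6 FPKM in treated SLE123 against 10.6, 9.31 and 9.4 in treated B6 mice, difference 1.44, adjusted p = 7.75e-05) and Galnt10 (23.2, 17.8 and 18.3 against 48.5, 46.1 and 52.2 FPKM, -1.27, adjusted p = 0.000136) had the largest differences. Between the treated groups alone 8 genes were called: Man2a1 (0.67), Man2a2 (0.34), Mgat2 (0.22), Mgat5 (0.23), B3galt6 (0.34) and B3galt5 (0.31) were higher and St3gal4 (-0.38) and B4galt5 (-0.21) lower in SLE123. The calls of Man2a2, Mgat2, Mgat5, B3galt6 and B3galt5 were lost when rescaled to TPM, those of Mgat5, B3galt6 and B3galt5 also with quantile normalization, and that of B4galt5 with removal of immunoglobulin genes. Mgat5 stood at 0.08 with TPM and at 0.062 with quantile normalization, and was also not called without treated B6 replicate 1 or 5 or without treated SLE123 replicate 1 or 3. Man2a1 was at 22.2, 21.2 and 22.8 FPKM in treated SLE123 mice and at 14.4, 13.7 and 12.3 FPKM in treated B6 mice, and Mgat5 at 7.23 to 8.26 against 6.21 to 6.72 FPKM, both without overlap. In the other direction, Fut7, St3gal1, St3gal5, Mgat4b, Man1c1, C1galt1c1 and Gcnt2 were called between the untreated groups alone. St3gal1 was at 37 to 38.2 FPKM in treated SLE123 and at 33.1 to 42.2 FPKM in treated B6 mice. Whether any tested gene's strain difference changed with treatment is the interaction above, which called Fut7 alone. With no filter the 1 gene called there was B4galt6 instead, which was also called in B6 after treatment. It had 4, 4 and 6 fragments in untreated and 23, 26 and 21 in treated B6 libraries. In SLE123 libraries it had 78, 87 and 143 untreated and 33, 46 and 53 treated, without a call.

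The genes that feed these enzymes were followed as lists of neighbouring pathways. Of 26 tested genes that assemble the N-glycan precursor and transfer it to protein, 11 were higher and 1 lower in untreated SLE123 than in untreated B6 mice, and 19 higher and 0 lower between the treated groups, with median differences of 0.31 and 0.30. Over all genes the shares called were 22.8% higher and 20.1% lower between the untreated groups, and 29.6% higher and 22.5% lower between the treated groups. Rpn1 and Ddost, subunits of the oligosaccharyltransferase, were at 49.8, 58.8 and 84.2 and at 80.4, 100 and 124 FPKM in untreated SLE123 mice and at 23.9 to 27.3 and 51.9 to 54.8 FPKM in untreated B6 mice. Stt3b, one of its catalytic subunits, was the gene that was lower (-0.32). Rpn1 and Ddost were highest in untreated SLE123 replicate 3, the mouse with the largest plasma cell sum, whose part was not tested. After anti-CD45RB in B6 mice Tusc3 was higher and Alg3 and Stt3b were lower, 3 of 26 where 14.9% of all genes were called, with 0 of the 26 called in SLE123. In sialic acid supply, Nans (28.5, 35.7 and 38 against 22 to 22.5 FPKM), which makes sialic acid 9-phosphate, and the sialidase Neu3 were higher in untreated SLE123 mice along with Renbp, and the lysosomal sialidase Neu1 was lower (16.8 to 19.4 against 24.7 to 25.5 FPKM, -0.43), 3 and 1 of 9 tested, against the same 22.8% and 20.1% of all genes. Cmas, which activates sialic acid, and Nans rose in treated B6 mice by 0.22 and 0.20. These were 2 of 9 tested, where 8.74% of all genes were called higher. Among genes for UDP-GlcNAc and GDP-fucose, Gmds, which starts GDP-fucose synthesis (5.5, 6.33 and 7.22 against 3.6 to 4.39 FPKM), and Uap1l1 were higher in untreated SLE123 than in untreated B6 mice, and Tsta3 and the GDP-fucose transporter Slc35c1 (22.8 to 23.8 against 30.1 to 33.6 FPKM) were lower. Uap1, which makes UDP-GlcNAc, rose in treated B6 mice (0.35). Of 7 tested glycoproteins that carry these glycans, Spn (CD43) and Selplg (PSGL-1) rose in treated B6 mice, from 167 to 175 FPKM to 205 to 234 FPKM and from 186 to 202 FPKM to 227 to 248 FPKM. The share of all genes called higher there was the same 8.74%. Ptprc, which encodes CD45, was at 507 to 542 FPKM in untreated and 436 to 479 FPKM in treated B6 mice (-0.17, adjusted p = 0.0515) and at 492, 328 and 377 FPKM in untreated SLE123 mice (-0.40, adjusted p = 0.0825). Between the untreated strains Selplg was lower in SLE123, at 142, 163 and 112 FPKM (-0.51, adjusted p = 0.0234), and Cd44, Icos and Ctla4, which are raised on activated T cells, were higher, and the same 4 genes were called in the same directions between the treated groups. No gene of the 4 lists was called in SLE123 after treatment or in the interaction, where 0.0381% and 3.64% of all genes were called.

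The study considered CREB and ATF-1 as regulators of genes that respond in B6 mice; these factors are known to bind the cyclic AMP response element TGACGTCA or its shorter form TGACG. Promoter windows of RefSeq genes (GRCm38.p6, 250 bases before to 50 after the start) were searched for these letters on both strands; a full element also contains the short form on each strand. Windows were found for 65 of the 89 genes. The full element was in 1.79% of all 32851 windows and in 1 of 91 windows of the genes described here, that of Galnt11. The short form was in 20.8% of all windows, 23.1% of these 91 and 31.2% of the 16 windows of 11 of the genes called in treated B6 mice. Those 5 windows belong to 4 genes, the risen B3gnt5 and the fallen Galnt11, B3gntl1 and Galnt6. For each gene 1 window is printed because it holds the letters among the responding genes. A second Galnt11 window, chr5:25246123-25246422 (+), holds 1 short form 248 bases before its own start and is not printed. The capitals mark TGACG, its reverse complement CGTCA, or the full element, and the gene strand is given 5′ to 3′. Galnt11 is chr5:25222622-25222921 (+), Galnt6 is chr15:100729327-100729626 (-), B3gntl1 is chr11:121673102-121673401 (-) and B3gnt5 is chr16:19759984-19760283 (+).
Galnt11: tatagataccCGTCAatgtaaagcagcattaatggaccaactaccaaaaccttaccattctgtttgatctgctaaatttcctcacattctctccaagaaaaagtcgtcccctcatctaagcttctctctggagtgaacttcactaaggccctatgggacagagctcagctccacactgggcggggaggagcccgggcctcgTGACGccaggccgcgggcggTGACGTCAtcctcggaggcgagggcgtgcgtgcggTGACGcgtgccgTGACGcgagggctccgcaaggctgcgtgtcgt
Galnt6: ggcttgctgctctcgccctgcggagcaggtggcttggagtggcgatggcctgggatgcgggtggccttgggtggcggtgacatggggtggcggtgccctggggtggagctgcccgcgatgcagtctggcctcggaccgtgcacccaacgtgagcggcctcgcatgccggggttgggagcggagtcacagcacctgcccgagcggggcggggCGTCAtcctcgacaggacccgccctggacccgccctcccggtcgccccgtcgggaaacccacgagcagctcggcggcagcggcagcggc
B3gntl1: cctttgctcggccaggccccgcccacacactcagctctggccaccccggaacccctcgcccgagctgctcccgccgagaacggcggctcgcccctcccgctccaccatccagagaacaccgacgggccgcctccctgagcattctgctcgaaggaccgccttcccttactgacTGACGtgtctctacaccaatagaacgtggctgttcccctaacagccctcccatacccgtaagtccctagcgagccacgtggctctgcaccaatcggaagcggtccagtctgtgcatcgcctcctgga
B3gnt5: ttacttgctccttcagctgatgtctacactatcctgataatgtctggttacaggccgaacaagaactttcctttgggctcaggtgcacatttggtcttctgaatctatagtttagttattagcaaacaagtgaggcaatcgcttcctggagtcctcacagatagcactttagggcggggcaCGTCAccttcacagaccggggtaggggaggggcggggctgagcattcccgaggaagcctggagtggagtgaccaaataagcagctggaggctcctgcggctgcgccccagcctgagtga
In the printed Galnt11 window the full element begins 29 bases before the RefSeq start of that window, and further short forms stand on both sides of it. Galnt11 has more than 1 such start. The single short forms of Galnt6, B3gnt5 and B3gntl1 begin 39, 69 and 77 bases before the start. These matches describe letters in a window, and binding was not measured. In SLE123 mice the 4 genes had treatment differences of 0.01 (Galnt11), 0.20 (Galnt6), 0.18 (B3gntl1) and 0.18 (B3gnt5), none of them called.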

How the data were processed

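RNA of purified CD4+ T cells of 12 mice, 3 per group, was sequenced, and groups and replicate numbers come from the titles and strain and treatment labels. Whether each library is 1 animal is taken from the study's legend. The authors deposited FPKM values per Ensembl gene and library, with reads called by CASAVA 1.8 and mapped with STAR to mm10 per the submitters' processing notes; the annotation, the counter and the strandedness are not given in the sources used here. The authors tested pairs of groups with DESeq2, which was not run here, since the deposited unit is FPKM. Libraries were prepared from poly-A RNA with random hexamers.

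Symbols, types and coordinates came from GENCODE M21 (GRCm38) for 34490 of 35275 genes. For 100% of the 23230 genes above 0, values were whole multiples of 1 fragment within 0.01 fragment, which gave 13562933 to 23641603 fragments per library. The 13115 genes averaging 0.5 FPKM or more were tested on log2(FPKM + 1) with limma 3.58.1 (lmFit, eBayes with a trend) in R 4.3.3: 4 comparisons on the 6 mice concerned and the strain-by-treatment interaction on all 12. P-values were adjusted over all 13115 genes by Benjamini-Hochberg at 0.05. The fit was tested on simulated data. The FPKM floors cover counting error only, whereas SE and SD come from the spread between the mice of a group.

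The genes, gene lists, marker lists and the promoter motif were chosen with earlier results of these data known. Named genes are those called in any comparison (the 30 with the smallest adjusted p-value), genes read by the study's lectins and antibodies or with a textbook role in T cells, and genes on the study's list of lowered metabolic genes; Galnt14, B3galt1, other genes below the filter and the genes outside this rule were named after their values were seen. Marker lists for CD8 T, regulatory T, basophil and eosinophil, NK, erythroid, platelet, exocrine pancreas and cell cycle genes were also summed. As alternatives, a pseudocount of 0.1, a mean of 1 FPKM as limit or none, TPM, median centring, quantile normalization, removal of immunoglobulin genes, voom on recovered fragments, 1 fit of all 12 mice, a replicate block and the omission of each mouse were tried. Of the nucleotide sugar list, 1 gene is not reported here.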

Additional observations from a re-analysis of the deposited data

Results flagged for a closer look

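Fut7, which completes selectin ligands, differed between the strains in its response to anti-CD45RB by the test of the difference itself: the interaction on all 12 mice was -0.62 on the log2(FPKM + 1) scale (SE 0.146, limma adjusted p = 0.0435). The treatment difference was 0.58 in B6, where 3 of 3 treated mice were above every untreated mouse, and -0.04 in SLE123, where untreated mice already had 2.13 to 2.55 FPKM against 0.718 to 0.959 FPKM in untreated B6 mice. Fut7 had 24 to 121 fragments per library. The call was lost with no filter, TPM, quantile normalization, removal of immunoglobulin genes and a replicate block, and when any 1 mouse except untreated SLE123 replicate 1 was left out. The effector and memory T cell sum, 161 to 179 FPKM in untreated B6 mice, 288 to 348 in treated B6 mice and 472 to 583 in SLE123 mice, has the same order of groups, and its part was not tested.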

How the results depend on the processing

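Over the 70 pairs of a gene and a comparison that were called, 947 of 1091 alternative values kept sign and call, 143 kept the sign alone and 1 changed sign. The 12 genes called in B6 after treatment became 5 with no filter (B4galt6 among them), 5 with all 12 mice in one fit and 4 to 9 with 1 mouse left out. For the 0 in SLE123, the fit of all 12 mice gave 1. The interaction went from 1 to 0 with TPM, quantile normalization or removal of immunoglobulin genes, to 2 with voom, and to between 0 and 14 with 1 mouse left out. For these counts the cause was not tested. Rescaling to TPM turned C1galt1c1 to 0.069 (SLE123 treatment) and -0.036 (untreated strains), and, between untreated strains, Man2a1 to -0.014, Mgat5 to -0.27 (-0.058 with quantile normalization) and St6gal1 to -0.18; TPM moved the median of all genes in that comparison to -0.38. With 1 mouse left out, the B6 treatment difference of C1galt1 lay between -0.010 and 0.040 and that of C1galt1c1 between -0.038 and 0.144.

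Replicate numbers in the titles did not pair the mice: the correlation of deviations of same-numbered mice was -0.14 and -0.0936 in B6, 0.137, -0.161 and 0.266 in SLE123 and 0.0647 and 0.143 between treated strains, and not every SLE123 mouse correlated best with its own number. With the replicate block the calls were 0 in B6 (12 without it), 0 in SLE123, 19 between the treated strains (29 without it) and 0 for the interaction. Only numbers 3 and 5 occur in both B6 groups, and only 1 and 3 in both treated groups. The block thus leaves little from which to estimate the spread, and calls lost with it do not tell whether those without it hold. Between the untreated strains, which share 1 number, it could not be fitted. Depth limits Fut1, Fut4, B3galt1 and Galnt14 in B6 mice, where they had at most 12 fragments.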

Other observations

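The remaining marker lists were summed per mouse, in FPKM. Regulatory T cell genes (5) were at 42.2 to 59.8 in the B6 mice and at 153 to 190 in the SLE123 mice, and 4 of 5 were called higher in SLE123 in both strain comparisons. Cell cycle genes (4) were at 21 to 29.7 in B6 and at 68.6 to 111 in SLE123 mice. Basophil and eosinophil genes (7) were at 5.14 to 5.2 in untreated and 16.3 to 24.6 in treated B6 mice, and at 77.5 to 96.3 in untreated and 27.1 to 32.2 in treated SLE123 mice. In the same order, erythroid genes (4) were at 0.706 to 1.61, 3.17 to 9.11, 25.5 to 41.3 and 2.49 to 13.8, platelet genes (4) at 2.47 to 4.42, 12.9 to 20.6, 6.06 to 11.2 and 5.38 to 6.22, and NK genes (3) at 14.4 to 14.7, 24.8 to 38.7, 4.66 to 7.26 and 10.8 to 14.1. The CD8 genes (2) stayed between 4.23 and 19.4, and exocrine pancreas genes (5) between 0.0762 and 20.3.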
